A study of Mus musculus with 4 samples.

Results

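SRC-3, the product of Ncoa3, was considered here with its family and its working partners, 10 genes chosen by name from the 22180 genes that the arrays measured with a probe set assigned to 1 gene. They were the p160 coactivators Ncoa3, Ncoa1 and Ncoa2, the acetyltransferases Crebbp, Ep300 and Kat2b, the arginine methyltransferases Prmt1 and Carm1, and the coactivator genes Ncoa6 and Med1. All 10 were measured, by 1 probe set each, and all 10 belonged to the brighter genes, meaning those whose mean was not below that of the median gene (4.32, log2). RNA was from flow-sorted LSK cells of male mice aged 8 weeks, isolated after red cell lysis. LSK cells lack lineage markers, carry Sca1 and c-Kit, and include the hematopoietic stem cells and multipotent progenitors of bone marrow. The 2 groups were wild-type (WT) mice and SRC-3 knockout (KO) mice, with 2 samples each and 1 Affymetrix array per sample. The samples within a group are called biological replicates, but the labels give neither the number of mice per sample, the strain, the knockout allele nor whether the loss was confined to blood cells. Should the samples share mice, the p-values reflect a spread between arrays that may be technical.

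SRC-3 belongs to the p160 or steroid receptor coactivator family, with SRC-1 (Ncoa1) and SRC-2 (Ncoa2). A p160 protein has no DNA binding of its own. It is recruited by a ligand-bound nuclear receptor or another transcription factor through short leucine-rich helices, and it then docks the acetyltransferases CBP (Crebbp) and p300 (Ep300) and the arginine methyltransferases CARM1 and PRMT1, which modify histones around the target gene. Mediator, reached through its subunit MED1, links the receptor to RNA polymerase II. Since the p160 proteins overlap in what they bind, a rise of Ncoa1 or Ncoa2 transcript when SRC-3 is missing is one form that compensation could take, and the comparison of KO with WT was read for it.

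The RefSeq promoter table of build GRCm38.p6 held entries for 7 of the 10 genes and none for Ncoa2, Ncoa3 and Carm1. The 250 bases before the listed start are shown for the paralog Ncoa1, for Crebbp and Ep300, which had the most negative differences after Ncoa3, and for Prmt1, the gene that stood on the opposite side. Capitals mark matches to the GC box GGGCGG, and in Prmt1 also to CCAAT and to the E-box CACGTG, on either strand and with overlaps joined. Also searched were TTTCCCGC and TTTGGCGC for E2F, CCGGAAG for ETS factors, TGACGTCA for CREB and the consensus palindrome of NRF1.
Ncoa1 (chr12:4477183-4477432, minus strand): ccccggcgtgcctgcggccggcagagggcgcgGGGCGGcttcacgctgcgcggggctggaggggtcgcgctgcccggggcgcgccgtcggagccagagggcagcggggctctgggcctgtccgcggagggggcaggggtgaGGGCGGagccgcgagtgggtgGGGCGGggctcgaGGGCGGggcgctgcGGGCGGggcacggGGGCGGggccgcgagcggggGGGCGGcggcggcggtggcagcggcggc
Crebbp (chr16:4213405-4213654, minus strand): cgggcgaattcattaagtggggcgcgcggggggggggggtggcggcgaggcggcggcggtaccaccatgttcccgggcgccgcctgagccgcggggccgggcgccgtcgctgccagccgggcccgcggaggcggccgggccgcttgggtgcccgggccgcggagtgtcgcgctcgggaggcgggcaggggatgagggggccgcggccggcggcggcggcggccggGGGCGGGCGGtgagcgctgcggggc
Ep300 (chr15:81585964-81586213, plus strand): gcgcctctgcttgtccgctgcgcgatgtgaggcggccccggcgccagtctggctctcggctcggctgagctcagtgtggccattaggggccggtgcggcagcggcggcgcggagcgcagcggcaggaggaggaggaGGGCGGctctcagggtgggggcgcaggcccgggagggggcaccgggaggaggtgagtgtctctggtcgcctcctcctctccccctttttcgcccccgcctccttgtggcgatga
Prmt1 (chr7:44986421-44986670, minus strand): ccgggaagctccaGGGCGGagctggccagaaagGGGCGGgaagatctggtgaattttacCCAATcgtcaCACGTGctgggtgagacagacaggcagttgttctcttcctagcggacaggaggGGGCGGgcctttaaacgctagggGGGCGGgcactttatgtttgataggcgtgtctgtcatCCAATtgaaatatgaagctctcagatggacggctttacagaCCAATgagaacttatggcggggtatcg
The Ncoa1 window held 7 GC boxes, Crebbp 2, Ep300 1 and Prmt1 4. The Prmt1 window also held 3 CCAAT boxes and 1 E-box. Among the windows not shown, a Kat2b window and the Med1 window each held 1 CCAAT box. Of the 7 genes with an entry, 5 held a GC box, which was present in 32.7% of the 32851 promoter entries of the table. CCAAT was present in 33.9% of those entries and CACGTG in 6.02%. The Crebbp and Ncoa1 windows were 84.0% and 85.6% G or C, the Ep300 window 73.2% and the Prmt1 window 54.8%, against a median of 52.4% over all entries. Such matches describe the letters of these windows, and no binding was measured.

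Ncoa3 fell in KO, and none of its 9 relatives and partners passed the threshold in either direction. The other members leaned to lower values, with 8 of 9 means below WT and Prmt1 above. Ncoa3 read 7.76 and 7.05 on the WT arrays and 5.35 and 5.09 on the KO arrays (log2, replicates 1 and 2). The KO arrays lay far below the WT arrays, and the gap between the groups was wider than the gap within either. The mean fell 4.55-fold, a difference of -2.19 ± 0.27 on the log2 scale (SE, n = 2 per group, limma adjusted p = 0.038). Among all 22180 genes its difference ranked 5 from the lowest. With KO replicate 1 left out the difference was -2.32 (adjusted p = 0.716), with KO replicate 2 left out -2.06 (adjusted p = 0.551), and in a fit over all 41345 probe sets its adjusted p was 0.095. What remained in KO, at a mean of 5.22 ± 0.18 (SD, n = 2), is a probe set signal and not a measure of intact transcript, since the exons removed by the allele and those covered by the probes were not known here.

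With the threshold of an adjusted p under 0.05, 1 of the 10 members was lower and 0 were higher, against 0.113% and 0.397% of all genes. By the unadjusted p, at 0.05, KO was lower for 6 members and higher for 1. The same rule took 6.93% of all genes as lower and 10.5% as higher, and 9.55% and 17.5% of the 11090 brighter genes. With each array centred on its median the members lower by that rule were 4, and over all probe sets also 4, with 1 higher in each. Ncoa1 and Med1 fell short in both fits. In either direction the rule then took 4423 genes and 6851 probe sets. Means were lower in KO for 9 members and higher for 1, against 50.2% and 49.7% of all genes and 45.5% and 54.5% of the brighter ones. The WT and KO arrays did not overlap for 8 members with KO below WT and for Prmt1 with KO above WT. Over all genes 22.9% lay apart with KO below and 25.1% with KO above, and among the brighter genes 24.7% and 34.4%. Each of these lower counts includes Ncoa3, the knocked-out gene, which was the 1 past the adjusted threshold. Of the 9 others, 0 passed that threshold, and 5 were lower and 1 higher by the unadjusted p. Their means were lower for 8 and higher for 1, and 7 lay apart with KO below WT. The median difference was -0.49 over the 10 members and -0.47 over the 9 other than Ncoa3, against -0.0010 over all genes and 0.045 over the brighter ones.

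**Figure D1:**
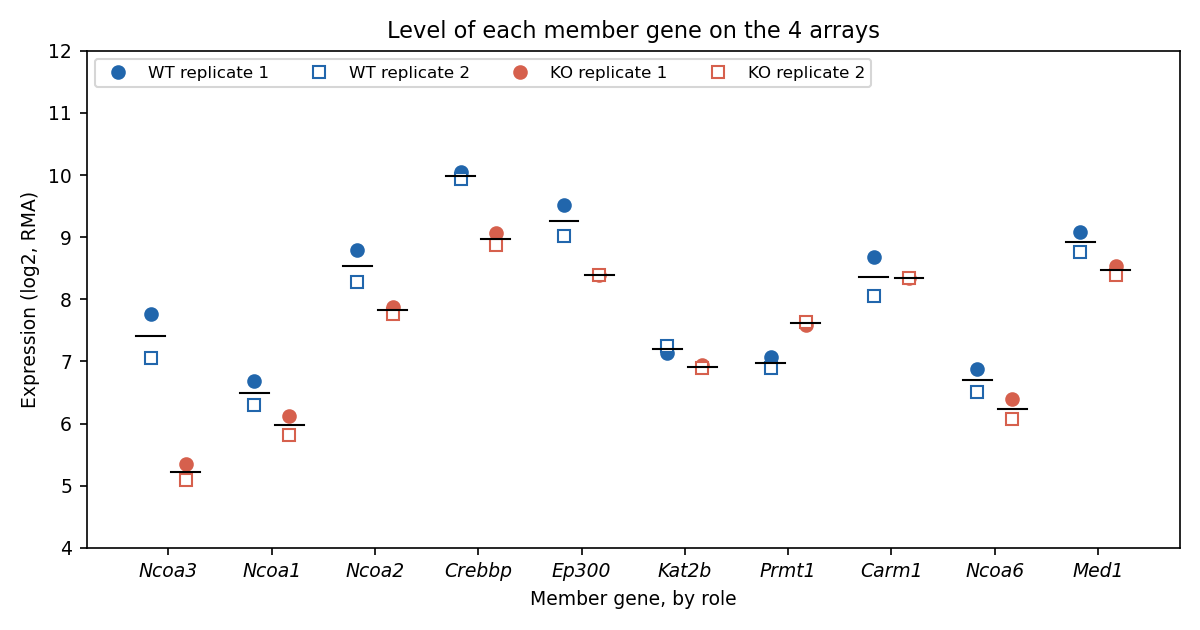
Log2 expression of the 10 member genes on each array, with WT in blue and KO in red, replicate 1 as filled circles, replicate 2 as open squares and the group mean as a line. Ncoa3 dropped from 7.76 and 7.05 to 5.35 and 5.09, Prmt1 alone sat higher on both KO arrays, and the KO values of Carm1 lay between its WT values; heights of different genes come from different probe sets and are not comparable.

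Neither paralog of SRC-3 was higher in KO. Ncoa1, encoding SRC-1, read 6.68 and 6.31 in WT and 6.13 and 5.82 in KO. The KO values were below both WT values, although KO replicate 1 and WT replicate 2 were closer to each other than the replicates of either group were. The difference was -0.52 ± 0.22 (SE, n = 2 per group, limma adjusted p = 0.285), with a 95% confidence interval from -1.04 to -0.0033. Ncoa2, encoding SRC-2, read 8.79 and 8.27 in WT and 7.87 and 7.77 in KO. Both KO arrays were again lower, at 1.64-fold below WT on average. Its difference was -0.71 ± 0.21 (SE, n = 2 per group, limma adjusted p = 0.169), with a 95% confidence interval from -1.22 to -0.20. These intervals are for 1 gene at a time and are not adjusted for the number of genes.

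The upper ends of those intervals bear on the size of any rise that these arrays could have missed. With all 4 arrays the largest upper end over 8 other settings was 0.19 for Ncoa1, a 1.14-fold rise, and -0.018 for Ncoa2. With 1 array left out in turn it reached 0.52 for Ncoa1 and 0.34 for Ncoa2, or 1.43-fold and 1.26-fold, both without KO replicate 2. Ncoa2 passed the threshold when WT replicate 2 was left out, at -0.97 with a limma adjusted p of 0.0099. With WT replicate 1 left out instead it stood at -0.45 (adjusted p = 0.061). Leaving out WT replicate 2 made the fit call 7.8% of all genes higher and 5.73% lower, and leaving out WT replicate 1 made it call 6.5% and 1.41%, shares far above the shares with all arrays. Transcript level on an array does not show protein amount or activity, so compensation at those levels was not measured.

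**Figure D2:**
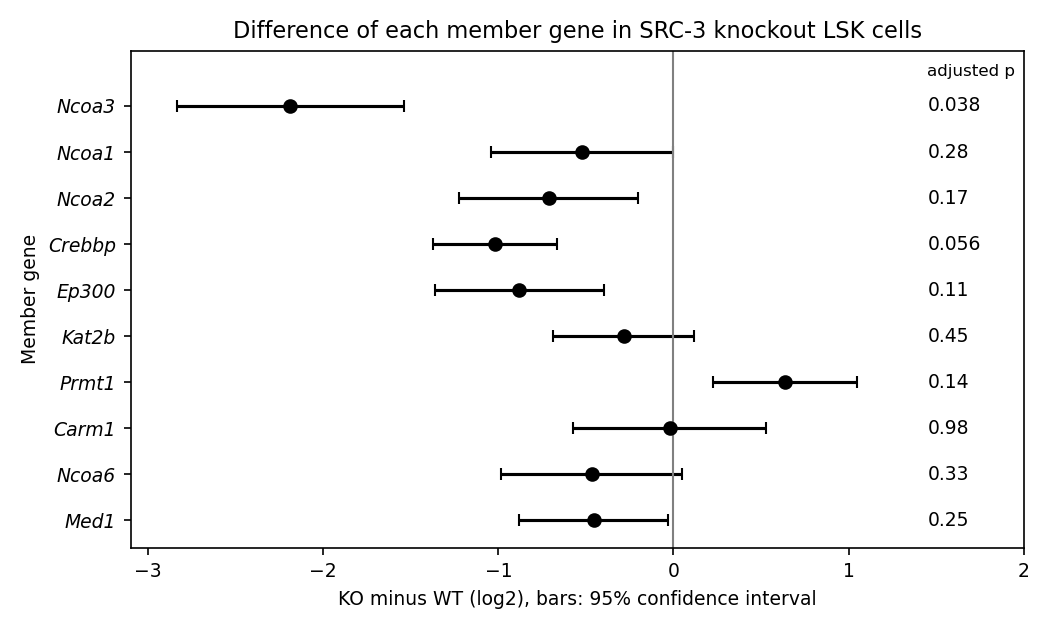
Difference between KO and WT (log2) for each member with its 95% confidence interval from the fit over all genes, and the adjusted p at the right. Ncoa3 at -2.19 is the member past 0.05, Crebbp at -1.02 has an adjusted p of 0.056, and the interval of Carm1 runs from -0.57 to 0.53.

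The loss of Ncoa3 signal was larger than the shift of any other member on the same arrays. The log2 gap of Ncoa1 over Ncoa3 was -1.08 and -0.75 on the WT arrays and 0.77 and 0.73 on the KO arrays, a change of 1.67. For Ncoa2 over Ncoa3 the gap went from 1.03 and 1.22 in WT to 2.52 and 2.67 in KO, a change of 1.47. Only the change of such a gap between genotypes is meaningful, since its height depends on the probes. The change was above 0 for all 9 other members, from 1.17 for Crebbp to 2.82 for Prmt1, with no overlap of the groups in any. Each gap subtracts Ncoa3, the knocked-out gene, so these signs follow from its fall. A change above 0 is no rise of the paralogs, since Ncoa1 and Ncoa2 were both lower in KO. The share of all genes with such a change was not counted. An exact two-sided permutation test of 2 against 2 arrays cannot go below p = 0.333, so these gaps carry no test of use.

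Crebbp and Ep300, whose products p160 coactivators dock, had the most negative differences between KO and WT after Ncoa3. Crebbp, encoding CBP, read 10.05 and 9.93 in WT and 9.06 and 8.88 in KO. The replicates lay close together in each group and the groups well apart, at 2.03-fold. Its difference was -1.02 ± 0.15 (SE, n = 2 per group, limma adjusted p = 0.056), just short of the threshold, with a 95% confidence interval from -1.37 to -0.67. It passed when only the brighter genes were fitted (adjusted p = 0.036) and after quantile normalization (-1.09, adjusted p = 0.036). Ep300, encoding the CBP relative p300, read 9.52 and 9.02 in WT and 8.39 on both KO arrays. The WT arrays differed from each other far more than the KO arrays did. The difference was -0.88 ± 0.20 (SE, n = 2 per group, limma adjusted p = 0.112), with a 95% confidence interval from -1.36 to -0.40. It was -0.63 without WT replicate 1, -1.13 without WT replicate 2 and -0.88 without KO replicate 1 or KO replicate 2. Crebbp was at -0.96 without WT replicate 1, -1.08 without WT replicate 2, -1.11 without KO replicate 1 and -0.93 without KO replicate 2.

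Kat2b encodes PCAF, an acetyltransferase of the SAGA and ATAC type complexes that binds p160 proteins and CBP. It read 7.13 and 7.26 in WT and 6.94 and 6.89 in KO. Its KO arrays were lower by little, and it was the member whose WT replicate 2 exceeded WT replicate 1. The difference was -0.28 ± 0.17 (SE, n = 2 per group, limma adjusted p = 0.448), and the 95% confidence interval from -0.69 to 0.12 included 0.

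Neither arginine methyltransferase gene passed the threshold, and the difference between their shifts was not tested. Prmt1, which encodes the main asymmetric arginine methyltransferase of the cell and acts on histone H4, read 7.07 and 6.89 in WT and 7.59 and 7.64 in KO. Both KO arrays were above both WT arrays, by 1.56-fold on average. The difference was 0.64 ± 0.17 (SE, n = 2 per group, limma adjusted p = 0.144), with a 95% confidence interval from 0.23 to 1.05. With 1 array left out it was 0.73 without WT replicate 1, 0.55 without WT replicate 2, 0.66 without KO replicate 1 and 0.61 without KO replicate 2. Carm1, which methylates histone H3 and CBP, read 8.67 and 8.05 in WT and 8.35 and 8.34 in KO. Its KO values were nearly identical and fell inside the WT range. The difference was -0.02 ± 0.23 (SE, n = 2 per group, limma adjusted p = 0.979), and the interval from -0.57 to 0.53 ends at a 1.44-fold rise. Its sign depended on which WT array was used, at 0.29 without WT replicate 1 and -0.33 without WT replicate 2 (adjusted p = 0.094 and 0.049), and it was 0.11 when each array was centred on its median.

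Ncoa6, a coactivator that joins nuclear receptors to a histone H3 lysine 4 methyltransferase complex, read 6.88 and 6.51 in WT and 6.39 and 6.08 in KO. The KO arrays were lower without overlap, but KO replicate 1 and WT replicate 2 were closer to each other than the replicates of either group were. Its difference was -0.47 ± 0.21 (SE, n = 2 per group, limma adjusted p = 0.331), with a 95% confidence interval from -0.98 to 0.050. Med1, the Mediator subunit that binds nuclear receptors, read 9.08 and 8.76 in WT and 8.53 and 8.40 in KO. Both KO arrays again lay below both WT arrays. The difference was -0.46 ± 0.18 (SE, n = 2 per group, limma adjusted p = 0.254), with a 95% confidence interval from -0.88 to -0.033. It was -0.29 without WT replicate 1, -0.62 without WT replicate 2, -0.52 without KO replicate 1 and -0.39 without KO replicate 2.

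**Figure D3:**
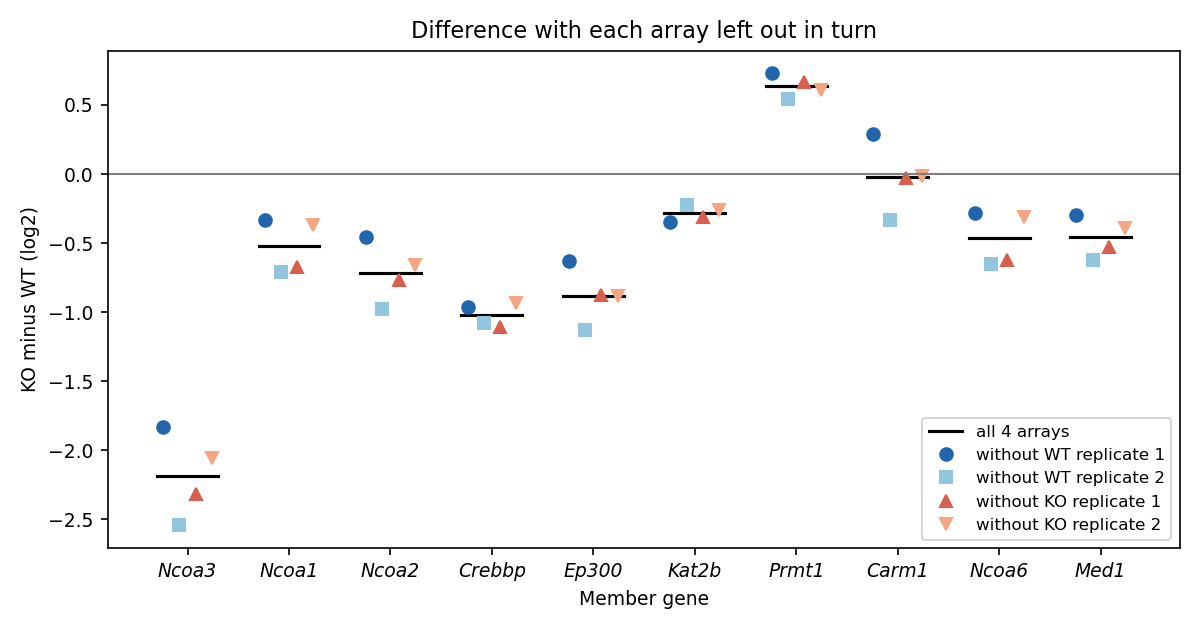
Difference between KO and WT (log2) of each member over all 4 arrays (line) and with 1 array left out (symbols). Of the 10 members only Carm1 crossed 0, at 0.29 without WT replicate 1, and Ncoa3 stayed at or below -1.83 in all 4 cases.

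Other features also differed between the arrays, in either direction. WT replicate 1 read above WT replicate 2 for 9 of the 10 members, against 59.2% of the brighter genes, and KO replicate 1 above KO replicate 2 for 8, against 58.3%. The 6 measured markers of the LSK gate and of progenitors, which did not include Ly6a, the Sca1 gene, averaged 8.86 and 8.62 in WT and 8.32 and 8.30 in KO (log2). Within them Kit read 10.3 and 9.65 in WT and 9.43 and 9.34 in KO, and Flt3 9.22 and 8.46 against 7.76 and 7.52, while Cd48 and Slamf1 had higher means in KO. Erythroblast markers, which the gate should exclude, averaged 4.06 and 3.94 in WT and 5.83 and 5.89 in KO. Of these 6, 4 were past the adjusted threshold as higher, against 0.397% of all genes, and 5 had higher means. The other, Slc4a1, the red cell anion exchanger gene, was at -0.96 ± 0.24 (SE), with both group means below the median gene. Neutrophil markers averaged 6.05 and 6.28 in WT and 6.90 on both KO arrays, with 0 of 10 past the threshold in limma. By the unadjusted p, 6 were higher, against 10.5% of all genes. Macrophage and dendritic cell markers averaged 5.39 and 5.26 against 5.95 and 5.98. Past the adjusted threshold 3 of 8 were higher, namely H2-Aa, H2-Eb1 and Slc40a1, against 0.397% of all genes. Higher means were found for 6, against 49.7% of all genes. The others did not follow as far, with Vcam1 at 0.34 ± 0.16, Csf1r at 0.18 ± 0.24 and Adgre1 at 0.15 ± 0.16 (SE). Cd68 and Itgax had lower means in KO, at -0.26 ± 0.20 and -0.13 ± 0.20. B cell markers averaged 4.93 and 5.04 against 4.58 and 4.50, T and NK cell markers 4.17 and 4.51 against 4.24 and 4.32, and platelet and megakaryocyte markers 5.33 and 5.41 against 5.72 and 5.74. The part of these markers in the members' values was not tested, and in bulk RNA fewer cells of a type and less RNA per cell cannot be told apart.

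The other genes of the same machinery did not share 1 direction. None of the 125 genes in 8 lists outside the members passed over all genes in limma. By the unadjusted p, 23 of the 126 list entries were higher and 17 lower, with Wdr5 entered under both Kat2b and Ncoa6. The same rule took 10.5% of all genes and 17.5% of the brighter ones as higher, and 6.93% and 9.55% as lower, which is the background for each list. Among 10 other lysine acetyltransferases, 2 were higher and 3 lower by the unadjusted p, with a median difference of -0.17. Kat8, the histone H4 lysine 16 acetyltransferase, was at 0.75 ± 0.16, and Hat1, which acetylates newly made histone H4, at 0.57 ± 0.15 (SE). Kat6a, a MYST acetyltransferase needed by hematopoietic stem cells, was at -0.61 ± 0.19. Without WT replicate 1 the median of these 10 genes was 0.097 and without WT replicate 2 it was -0.50.

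The list of other arginine methyltransferases had 7 measured genes, 6 enzymes and Wdr77, the partner of PRMT5, and did not include Prmt2. Each of the 7 had a mean above that of WT, with a median difference of 0.24, 2 were higher by the unadjusted p, and none passed the adjusted threshold in limma. Prmt5, the main symmetric arginine methyltransferase, read 9.61 and 9.62 in WT and 10.02 and 9.99 in KO, a difference of 0.39 ± 0.13 (SE, limma adjusted p = 0.204). Prmt6 was at 0.61 ± 0.23, and Wdr77 at 0.24 ± 0.15. Among all genes 49.7% had their mean above that of WT, and 54.5% of the brighter ones, to which 6 of the 7 belonged. The median of these 7 genes ran from 0.18 to 0.37 over the 12 other settings.

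The 32 other Mediator genes, all among the brighter genes, had 19 means above and 13 below WT, where 54.5% of the brighter genes had a mean above. By the unadjusted p, 8 were higher and 5 lower, and the median difference was 0.23. Med4, a middle module subunit, read 5.61 and 5.45 in WT and 6.57 and 6.45 in KO, a difference of 0.99 ± 0.18 (SE, limma adjusted p = 0.080). Med9, also of the middle module, was at 0.74 ± 0.19, and Med13 of the kinase module at -0.69 ± 0.15. The dissociable kinase module, a grouping made after the values were seen, held all 5 genes that were lower by the unadjusted p, namely Med12, Med12l, Med13, Med13l and Cdk19. Its 7 genes had a median of -0.66, with 6 means lower and Ccnc higher, and the other 25 genes had a median of 0.28 with 18 means higher. Without WT replicate 2 the median of the 32 genes was 0.039.

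Around Kat2b, the 21 measured genes of SAGA and ATAC had 12 means above and 9 below WT, with 7 genes higher and 1 lower by the unadjusted p and a median of 0.20. Sgf29, a reader of histone H3 lysine 4 methylation, was at 0.77 ± 0.16. Taf9 and Taf12, histone-fold subunits, were at 0.57 ± 0.15 and 0.65 ± 0.18 (SE). Tada2b, an adaptor subunit and the 1 gene lower by that rule, was at -0.52 ± 0.18. Tada2b was dim, at 4.22 and 4.46 in WT and 3.79 and 3.85 in KO, where the median gene was at 4.32. Around Ncoa6, the 9 genes of the methyltransferase complex had 1 higher and 2 lower, with a median of 0.12. The catalytic subunit gene Kmt2c was at -0.79 ± 0.17 and the demethylase gene Kdm6a at -0.51 ± 0.18, while Dpy30, a core subunit, was at 0.57 ± 0.22 (SE).

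Among 20 other nuclear receptor coactivators, 1 was higher and 3 lower by the unadjusted p, with a median of -0.091. Zmiz1, an androgen receptor and Notch coactivator, was at -0.84 ± 0.18, Psmc5, a proteasome subunit once described as a receptor cofactor, at 0.59 ± 0.19, and Ppargc1a at -0.68 ± 0.26 (SE). Ppargc1a, which encodes the mitochondrial biogenesis coactivator PGC-1alpha, was dim, at 3.40 and 4.06 in WT and 2.85 and 3.25 in KO, below the median gene on all 4 arrays. The 14 measured corepressor genes had 2 higher and 1 lower, with a median of -0.092. The ligand-dependent corepressor gene Lcor was at -0.59 ± 0.18, the deacetylase gene Hdac1 at 0.65 ± 0.22 and Cops2 at 0.46 ± 0.19 (SE). Centring each array on its median turned the medians of both lists to 0.043 and 0.042.

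Of 13 measured genes for enzymes known to modify SRC-3 or direct its turnover, 0 were higher and 2 lower by the unadjusted p, with a median of -0.20. The kinase gene Gsk3b was at -0.59 ± 0.19, the deubiquitinase gene Usp9x at -0.62 ± 0.20 and the kinase gene Ikbkb at -0.45 ± 0.19 (SE). Spop, an adaptor that targets SRC-3 for ubiquitination, read 8.18 and 6.72 in WT and 7.29 and 7.31 in KO. Its KO arrays lay between WT arrays that were far apart, so its difference of -0.15 ± 0.44 is poorly determined. Fbxw7, another adaptor that targets SRC-3 for ubiquitination, was at -0.05 ± 0.17.

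**Figure D4:**
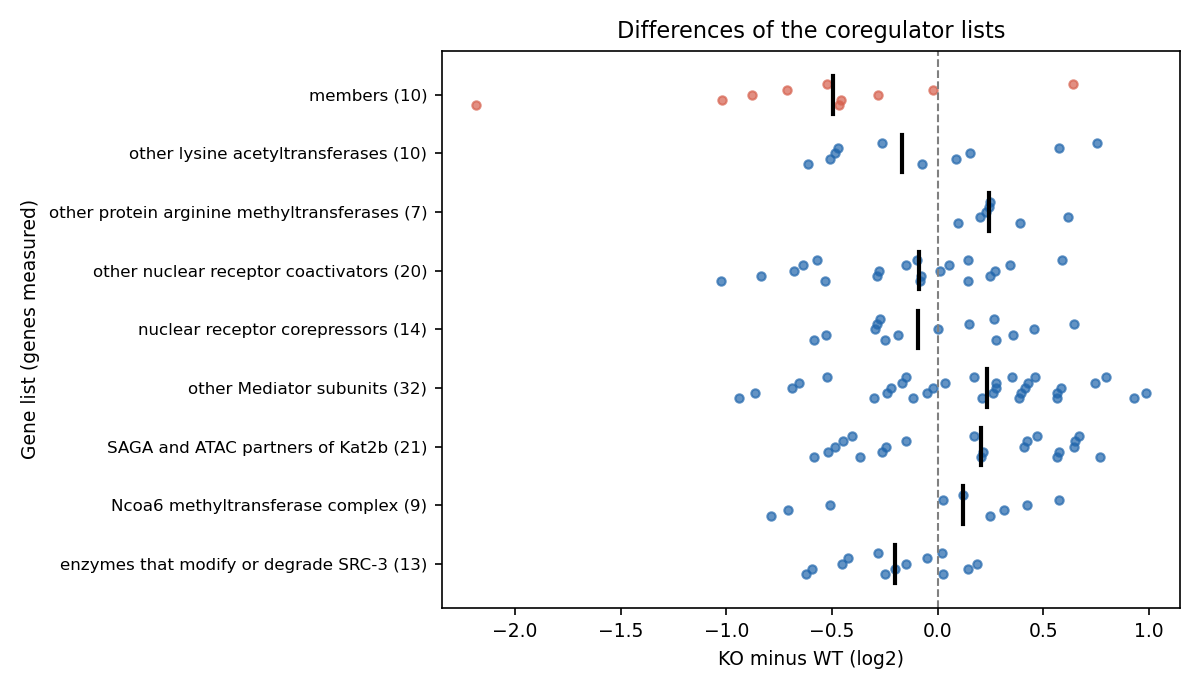
Difference between KO and WT (log2) of each gene in the 10 members (red) and 8 related lists (blue), with the median of each list as a black bar and the median of all genes as a dashed line. The members' median is -0.49, while list medians run from -0.20 for enzymes that modify SRC-3 to 0.24 for arginine methyltransferases; vertical spread within a row only separates points.

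The genes whose 4 array values, after subtracting each gene's mean, lay nearest to those of Ncoa3 were Emp1, Lncpint, Nfat5, Arhgap32 and Pdgfrb, at Euclidean distances of 0.207, 0.355, 0.601, 0.687 and 0.705 on the log2 scale. The likeness is over 4 arrays of 2 genotypes and rests on the drop in KO. Emp1, an epithelial membrane protein gene, read 7.63 and 7.03 in WT and 5.40 and 5.25 in KO. Lncpint, a long noncoding RNA gene, read 6.29 and 6.02 in WT and 4.30 and 3.97 in KO.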

How the data were processed

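Expression in LSK cells of 2 WT and 2 KO samples was taken from the table the authors deposited, which holds log2 values for 41345 probe sets on 4 arrays, from 0.375 to 12.8 with array medians of 3.84 to 4.05. Per the submitters' processing notes, RMA and Affymetrix Expression Console 1.2.1 were used. Any filter and the genome build were not stated there. RMA compresses dim values, so their folds are understated. Precision is limited by 2 arrays per group.

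The platform annotation gave 1 gene to 23521 probe sets, several to 1814 and none to 16010. Each of 22180 genes was represented by its probe set of highest mean. A linear model in limma 3.58.1 (R 4.3.3) took KO minus WT over all 4 arrays, with an intensity trend, two-sided p-values, Benjamini-Hochberg adjustment over all genes and a threshold of 0.05. The fit was tested on simulated data. The members and lists were chosen with earlier results of these data known. All members were described, and from each other list up to 3 genes of smallest p. Further genes were chosen after their values were seen (Spop, Fbxw7, Kit, Flt3, Cd48, Slamf1, Slc4a1, Wdr5, Tada2b, Ccnc and the kinase module). The 8 macrophage and dendritic cell markers were also named after their values were seen. The 5 genes nearest Ncoa3 exclude unnamed gene models. Older symbols of list genes were updated through RefSeq of GRCm38.p6. The alternatives concerned probe set choice, dim genes, scaling, moderation, the replicate block and each array left out.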

Additional observations from a re-analysis of the deposited data

How the results depend on the processing

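Of the 10 members, 9 kept the direction of their difference under all 12 other settings. Carm1 was at 0.11 with each array centred on its median and ran from -0.33 to 0.29 with 1 array left out. Ncoa3 was past the threshold in 9 of the 12 settings and not in a fit over all probe sets (-2.19, adjusted p = 0.095) or without either KO array, and it ran from -2.54 to -1.83 with 1 array left out. Crebbp passed in a fit of the brighter genes (-1.02) and after quantile normalization (-1.09). With 1 array left out Crebbp ran from -1.11 to -0.93, Ncoa2 from -0.97 to -0.45, Ep300 from -1.13 to -0.63, Prmt1 from 0.55 to 0.73 and Med1 from -0.62 to -0.29. Each of these fits left a single array in 1 group, and the number of genes passing depended on which array was left out. The number of genes called, 88 higher and 25 lower, was 10 higher over all probe sets, 208 and 81 for the brighter genes, 142 and 47 after quantile normalization and 320 and 42 after median centring. It ran from 0 to 1730 higher and from 0 to 1272 lower with 1 array left out. The counts of 0 came without KO replicate 1 or KO replicate 2 in limma, where 1471 and 1910 genes had an unadjusted p under 0.05. A lone array was then assumed to vary like the other group. Median centring moved the median of all genes to 0.13 and the median of arginine methyltransferases to 0.37. With 1 array left out the median of other acetyltransferases ran from -0.50 to 0.097 and that of corepressors from -0.17 to 0.13. The replicate number as a block changed no call among the members (Ncoa3 adjusted p = 0.013, Crebbp 0.074). The labels do not say that a number pairs samples, and deviations of same-numbered arrays correlated at 0.11 across genes. Beyond the number of features or arrays fitted, the cause of these changes was not tested. Signal over background was not available here.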

Other observations

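The genes beside Ncoa3 on its chromosome were looked at after the members, by the gene order of RefSeq GRCm38.p6. Among the 5 measured genes on each side, 9 of 10 had a lower mean in KO, 5 lay apart with KO below WT and 0 with KO above, and none passed the threshold in limma, with 2 lower at an unadjusted p under 0.05. Over all genes 50.2% had a lower mean, 22.9% lay apart with KO below, 25.1% with KO above, and 6.93% were lower at that p. Their median difference was -0.19, against -0.0010 over all genes. Eya2, a transcriptional coactivator phosphatase gene that lies 2 measured genes before Ncoa3, read 6.99 and 6.54 in WT and 5.57 and 5.51 in KO, a difference of -1.23 ± 0.21 (SE, limma adjusted p = 0.073). Prex1, a Rac exchange factor gene 4 measured genes after it, was at -0.81 ± 0.31, and its WT arrays, at 7.31 and 6.38, were far apart. Zmynd8, the adjacent chromatin reader gene, was at -0.40 ± 0.17, and Sulf2 on the other side at -0.03 ± 0.19.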
